A study of Populus trichocarpa with 6 samples.

Results

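Regions bound by tagged PtrVCS2 were described on Chr08 and Chr10 of Populus trichocarpa (black cottonwood). These chromosomes are paired by the whole-genome duplication of the Salicaceae, the willow and poplar family. A region was kept when overlapping peaks (by at least 1 bp) of the 3 replicate peak lists merged into an interval with a peak of every list. Such an interval is called a shared region. Chr08 held 261 shared regions and Chr10 held 286, together 547 of 4225 in the whole series.

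The samples were chromatin of cambium from plants overexpressing PtrVCS2-3×FLAG, a fusion of the protein to the FLAG peptide tag. Chromatin was immunoprecipitated (IP) with an antibody against FLAG in 3 replicates, and 3 input DNA samples of the same genotype and tissue, with no antibody, served as control. Each IP list was called against pooled input, so the 3 lists share 1 control and their agreement is not fully independent. The promoter behind the overexpression is not given in the sources used here, and plants without the tag were not analysed here.

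The cambium is the dividing cell layer between wood and inner bark, and PtrVCS2 has been linked to the form of the water-conducting vessels and to drought response in this species. Chromatin immunoprecipitation followed by sequencing finds DNA that is cross-linked to the tagged protein, directly or through partners. After a whole-genome duplication, each chromosome segment exists in a pair of copies. The copies start with the same genes and regulatory DNA and then lose genes, gain repeats and rearrange independently. Chr08 and Chr10 correspond to each other over much of their length, and the comparison asks whether tagged PtrVCS2 is laid out alike along them. No genome build is named for the files, so regions are given by the files' own positions, counted from 1, without genes or sequence. In bulk tissue, binding in fewer cells and weaker binding in each cell cannot be told apart.

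The lists of replicates 1, 2 and 3 held 434, 760 and 624 peaks on Chr08, against 463, 877 and 680 peaks on Chr10. Up to the last peak, Chr08 spanned 18.4 Mb and Chr10 spanned 22.6 Mb. Peak density on Chr08 was 23.6, 41.2 and 33.9 per Mb in the lists of replicates 1, 2 and 3 and averaged 32.9 ± 8.9 (SD, n = 3). On Chr10 it was 20.5, 38.9 and 30.1 per Mb and averaged 29.9 ± 9.2 (SD, n = 3). Chr08 was denser within every list, by 3.04 ± 0.68 peaks per Mb (SD, n = 3), although the lists differ more from each other than the chromosomes do. An exact sign-flip permutation test over the 3 lists gave p = 0.25 (two-sided), the smallest value that 3 lists allow, so no comparison over these lists can pass 0.05. Among shared regions the density was 14.2 per Mb on Chr08 and 12.7 per Mb on Chr10, a ratio of 1.12.

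Both chromosomes stood on the dense side of the genome. The 2 together held 13.3 shared regions per Mb, against 10.4 per Mb on the other 17 chromosomes. Single lists gave 21.9, 39.9 and 31.8 peaks per Mb on the pair in replicates 1, 2 and 3, against 15.9, 25.8 and 22.5 peaks per Mb elsewhere. The pair was higher in 3 of 3 lists, by 9.81 ± 4.12 peaks per Mb (SD, n = 3; exact sign-flip permutation p = 0.25). In order of shared-region density, Chr08 was number 2 and Chr10 number 4 of 19 chromosomes. A −log10 q of 10 or more in every list left 78 shared regions on Chr08 and 77 on Chr10, and the density ratio of the pair over the other chromosomes, 1.28 for all shared regions, was then 1.12. Without replicate 1 the remaining lists shared 380 regions on Chr08 and 438 on Chr10, a looser definition.

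A smaller part of what was called on the pair recurred. Of the merged regions, 26.9% on Chr08 (261 of 971) and 26.9% on Chr10 (286 of 1063) had a peak of every list, against 31.3% in the whole series. These were the lowest shares of the 19 chromosomes, and the next lowest was 28.9% on Chr07. Regions of a single list numbered 26.0 per Mb on the pair and 15.6 per Mb on the other 17 chromosomes. Most came from replicate 2, with 15.01 regions per Mb seen in its list alone on the pair, against 8.12 per Mb elsewhere. Within each list, the share of peaks that fell in shared regions was 72.7%, 41.4% and 44.6% on the pair in replicates 1, 2 and 3, against 75.3%, 48.9% and 48.5% on the other chromosomes. A shared region takes a peak of every list by definition, so these shares are not independent and are given as a description. Strong peaks did recur, on the pair as elsewhere. On the pair, peaks whose −log10 q was 20 or more lay in shared regions in 76 of 76 cases for replicate 1, 78 of 78 for replicate 2 and 114 of 114 for replicate 3. On the other 17 chromosomes the counts were 514 of 514, 529 of 533 and 855 of 859.

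**Figure D1:**
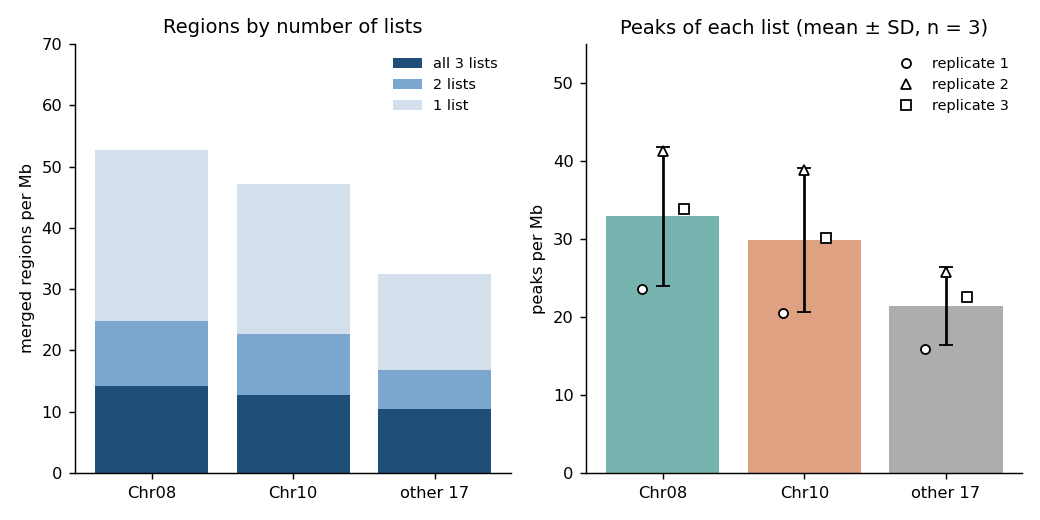
Left, merged regions per Mb on Chr08, Chr10 and the other 17 chromosomes, stacked by the number of lists with a peak. Right, peaks per Mb of each list (points), with the mean and SD over the 3 lists. Both chromosomes lie above the rest in every list, and most of the difference in merged regions is in those of 1 list, 27.9 per Mb on Chr08, 24.5 on Chr10 and 15.6 elsewhere.

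A class of regions lies where the pooled input itself is high, and there a low fold can be called. It is defined here by an expected height, the control level at the summit, of at least 4 times the lowest of its list, in at least 2 of 3 lists. On Chr08 13 shared regions (4.98%) and on Chr10 12 (4.20%) were of this class, against 9.18% in the whole series. Their mean folds ran between 1.76 and 2.70. They lay apart from each other along both chromosomes, except for 2 neighbours on Chr08, at 2814617 to 2814773 and 2814916 to 2815290. The densities and the shares of recurring regions given above include this class. The window counts and stretches that follow leave it out, which keeps 248 regions on Chr08 and 274 on Chr10.

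The layout along the chromosomes was uneven and ran in opposite directions. In the files' coordinates, Chr08 was filled from near its start and nearly empty at its end, whereas Chr10 was nearly empty at its start and filled towards its end. With each chromosome divided into 5 equal parts, part 5 of Chr08 held 9 of 248 regions (3.63%) and part 1 of Chr10 held 10 of 274 (3.65%). In the single lists these parts took 2.47% ± 0.17 of the peaks of Chr08 and 3.53% ± 0.34 of those of Chr10 (SD, n = 3 each). At the other end, part 1 of Chr08 held 60 regions (24.2%) and part 5 of Chr10 held 104 (38.0%). By shared regions the densest was part 2 on Chr08, with 20.6 per Mb, and part 5 on Chr10, with 23.1 per Mb. In the single lists part 3 of Chr08 took 27.8% ± 2.4 of its peaks and part 2 took 26.8% ± 1.6 (SD, n = 3 each), so these parts were not told apart.

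In 1-Mb windows, Chr08 had a mean of 13.1 regions per window over 19 windows, and Chr10 had 11.9 over 23. A window is called dense at 1.5 times its chromosome's mean or more and sparse at 0.5 times or less. The incomplete last window (0.425 Mb on Chr08, 0.554 Mb on Chr10) was counted like a whole one, which lowers its count and the mean. The Chr10 windows from 8000001 and from 17000001, at 0.504 times the mean, lay just above the sparse limit. Chr08 had 4 dense windows, each standing alone between windows of middle count, spread over the first 59.7% of its span. The densest, from 3000001 to 4000000, held 26 shared regions and 47, 83 and 57 peaks in replicates 1, 2 and 3. It was followed by the window from 10000001 to 11000000 with 24 regions and that from 8000001 to 9000000 with 23. From 11000001 to 15000000 the counts lay between 7 and 11. The last 4 windows, from 15000001 on, were all sparse, with 9 regions in all. The window from 15000001 to 16000000 held no shared region, with 0, 2 and 0 peaks in the lists.

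Chr10 began with 7 sparse windows in a row, up to 7000000, with 18 regions in all and no more than 5 in a window. The window from 2000001 to 3000000 had no shared region and no peak in any of the 3 lists outside the high-input class. Counts of 6 to 10 followed, and the first dense window began at 10000001, with 22 regions. The densest windows were those from 18000001 to 19000000 with 39 regions, from 20000001 to 21000000 with 30, and 3 with 22 regions each, from 10000001, 13000001 and 14000001. The window with 39 regions held 55, 96 and 73 peaks in replicates 1, 2 and 3. It came directly after 2 windows of middle count, with 9 and 6 regions, so the rise in count was abrupt there. Dense windows held 37.9% of the regions of Chr08 in 4 windows, against 56.2% of those of Chr10 in 6. The spread of window counts was 61.2% of the mean on Chr08 and 84.2% on Chr10. These profiles recurred between lists: Spearman's rho of peak counts was 0.940 to 0.957 over the 19 windows of Chr08 and 0.955 to 0.962 over the 23 of Chr10, for the 3 pairs of lists, which share the pooled input.

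**Figure D2:**
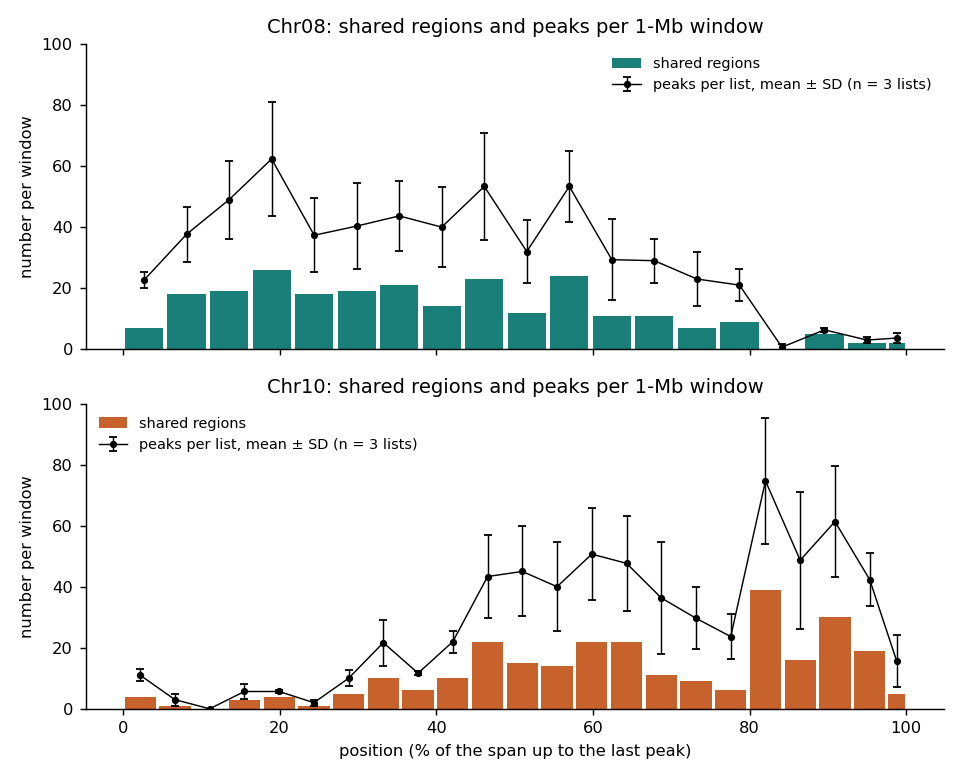
Shared regions outside the high-input class (bars) and peaks per list (points, mean and SD over 3 lists) in 1-Mb windows, by position as a percentage of the span up to the last peak; Chr08 above, Chr10 below. The last 4 windows of Chr08 hold 9 regions and the first 7 of Chr10 hold 18, so the thin ends face opposite ways.

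To set the profiles side by side, each chromosome was divided into 19 parts of equal relative length. In the files' direction the counts of shared regions on Chr08 and Chr10 gave a Spearman's rho of -0.516 and Pearson's r of -0.525. With Chr10 reversed, rho was 0.701 and r was 0.680 (n = 19 parts, high-input regions included). In the single lists, without high-input peaks, rho with Chr10 reversed was 0.701, 0.721 and 0.695 and averaged 0.706 ± 0.014 (SD, n = 3). Parts of a chromosome are not independent, both profiles come from the same libraries, and gene density was not used, so these are descriptions. With a linear trend removed from each profile, rho with Chr10 reversed was 0.156 and r was 0.391. With the last 4 parts of Chr08 left out they were 0.484 and 0.517 over 15 parts. Both checks were added after the data were examined. Without high-input regions rho with Chr10 reversed was 0.698. Among the other 170 pairs of chromosomes treated that way, 11 had a higher rho with the second chromosome reversed, and 17 had a higher rho in their better direction, up to 0.884. A rho of this size was thus also found between chromosomes outside the pair.

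**Figure D3:**
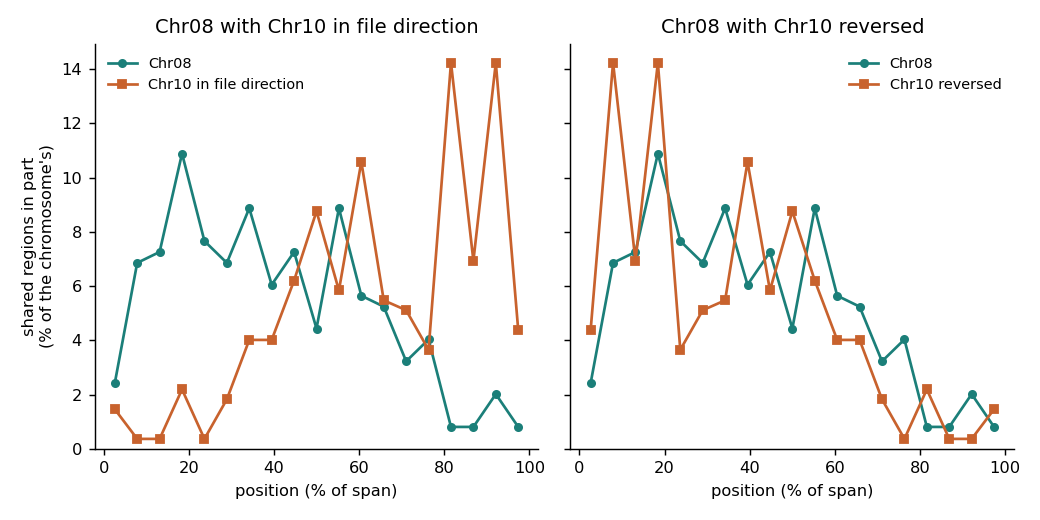
Share of each chromosome's shared regions, outside the high-input class, in 19 parts of equal relative length, with Chr10 in the direction of the files (left) and reversed (right). Reversed, both curves lie at 2.19% or less in the last 4 parts, while single peaks such as those of 14.2% on Chr10 have no counterpart of that size on Chr08, where the highest part holds 10.9%.

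The 3 longest stretches without a shared region were taken on each chromosome, with regions and peaks of the high-input class left out. Those of Chr10 all lay in its thin end, and 2 of those of Chr08 lay in or ran into its own. On Chr08 the longest ran from 14614356 to 16013586 over 1.40 Mb and held 1, 5 and 7 peaks in replicates 1, 2 and 3. The next ran from 17450033 to 18271330 (0.821 Mb; 0, 1 and 0 peaks), and the one after it lay at the very start, from 1 to 523634 (0.524 Mb; 4, 7 and 4 peaks). On Chr10 the longest ran from 1457668 to 3517157 over 2.06 Mb and held 0, 3 and 5 peaks. The stretch before it, from 399869 to 1456641 (1.06 Mb; 0, 0 and 1 peaks), was parted from it by a single shared region. The remaining one ran from 4663679 to 5923064 (1.26 Mb; 1, 0 and 1 peaks). Thus, outside the high-input class, 3 of the 6 stretches held no more than 1 peak of any list. A high-input shared region lay in each of the stretches beginning at 1 on Chr08 and at 1457668 and 4663679 on Chr10. Stretches of 200 kb or more took up 44.7% of the span on Chr08 and 52.3% on Chr10.

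Close spacing differed between the 2 chromosomes. Another shared region lay within 5 kb of 36.0% of the regions on Chr08 (94 of 261), against 47.2% on Chr10 (135 of 286), 39.6% on the other 17 chromosomes and 39.8% in the whole series. Single chromosomes ran from 27.1% on Chr16 to 52.2% on Chr13. In that order Chr10 was number 4 from the top and Chr08 number 15 of 19, so both lay within the range of the others. In the single lists, 61.1%, 64.1% and 64.6% of the peaks of Chr08 had another peak of the same list within 5 kb in replicates 1, 2 and 3, against 68.3%, 71.0% and 69.4% of the peaks of Chr10. On the other 17 chromosomes these shares were 58.3%, 64.9% and 62.6%. The values of the 2 chromosomes did not overlap, and Chr08 was lower in 3 of 3 lists, with a difference of -6.33 ± 1.302 percentage points (SD, n = 3; exact sign-flip permutation p = 0.25). Counting neighbours within 5 kb once left 208 groups on Chr08 and 211 on Chr10, or 11.3 and 9.36 per Mb. Without high-input regions, 158 of 197 groups on Chr08 were single regions, against 139 of 199 on Chr10. Pairs numbered 30 on Chr08 and 48 on Chr10, and no group on either held more than 4 regions. The tightest group of 4 lay on Chr10 from 18961343 to 18963721, with mean folds of 3.30 to 6.39. On Chr10 the share with a close neighbour was 20.0% in part 1 and 57.7% in part 5 of the 5 equal parts. On Chr08 it was highest in part 3, at 48.5%.

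**Figure D4:**
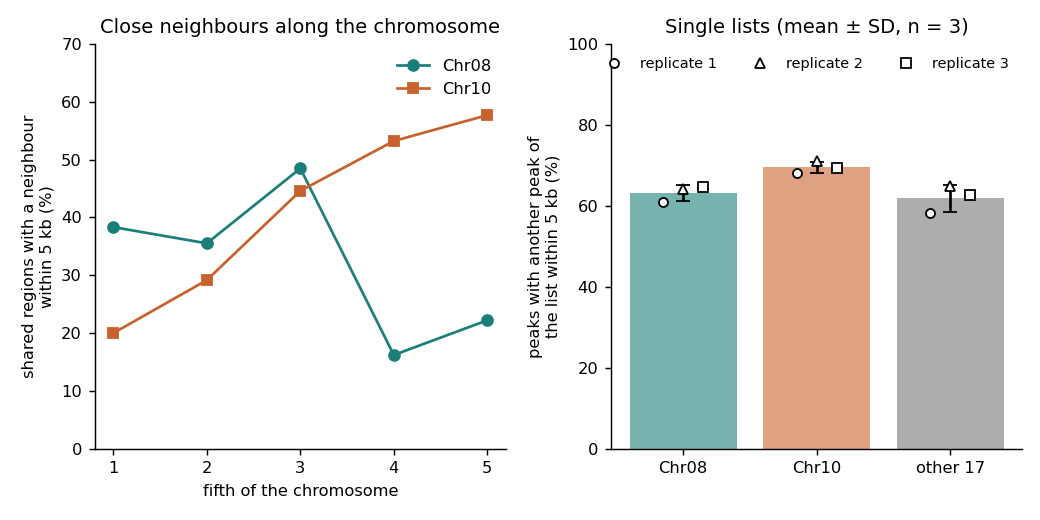
Left, percentage of shared regions outside the high-input class with another within 5 kb, in 5 equal parts of Chr08 and Chr10. Right, percentage of all peaks of a list with another peak of that list within 5 kb (points, replicates; bars, mean and SD over 3 lists). Chr10 reaches 57.7% in part 5, and its 3 lists all lie above those of Chr08.

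Median heights differed little. Height is the authors' fold enrichment at the summit, the IP level over that of the pooled input. The median fold of the shared regions was 3.21, 3.53 and 3.43 on Chr08 in replicates 1, 2 and 3, against 3.16, 3.52 and 3.36 on Chr10. Chr08 was higher in 3 of 3 lists, but only by 0.045 ± 0.026 (SD, n = 3; exact sign-flip permutation p = 0.25). Over all peaks of the lists the order was the other way, with a median fold of 3.00, 3.14 and 2.90 on Chr08, against 3.00, 3.18 and 2.92 on Chr10, lower on Chr08 in 3 of 3 lists (difference -0.019 ± 0.018, SD, n = 3; exact sign-flip permutation p = 0.25). The medians of the mean fold over the lists were 3.38 on both chromosomes, and 3.35 on the other 17, high-input regions included. Without high-input regions they were 3.42 on Chr08, 3.41 on Chr10 and 3.43 on the other 17. The median fold of the pair without that class was then lower than elsewhere in 3 of 3 lists, by 0.057 ± 0.016 (SD, n = 3; exact sign-flip permutation p = 0.25). The median IP height, recovered as reads covering the summit, was 48, 44 and 59 on Chr08, against 46, 43 and 58 on Chr10. The expected height at the same summits was 13.4, 11.1 and 15.9 reads on Chr08, against 13.8, 11.3 and 15.9 reads on Chr10. Heights of different lists depend on their depth and read extension, so only values within a list were compared. A mean fold of 5 or more was found in 36 regions of Chr08 (13.8%) and 33 of Chr10 (11.5%), against 11.0% in the whole series. Fold was correlated between lists across regions, with a mean rho over the 3 pairs of lists of 0.715 on Chr08 (261 regions) and 0.678 on Chr10 (286 regions).

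Regions of great height were few. Chr08 had no region with a mean fold of 8 or more and Chr10 had 3, against 16 of 3647 on the other 17 chromosomes and 0.45% in the whole series. The highest region of Chr08 lay from 1338831 to 1341133 with folds of 7.90, 7.65 and 6.92 in replicates 1, 2 and 3 (mean 7.49 ± 0.51, SD, n = 3). It was also the widest shared region of that chromosome, at 2303 bp. The region from 6015746 to 6016445 followed with folds of 7.60, 7.37 and 7.44 (mean 7.47 ± 0.12, SD, n = 3), with summits within 20 bp of each other. The other 6 of the 8 highest began at 8023852, 2380938, 8935396, 11560414, 12718667 and 11782940, with mean folds of 7.24 down to 6.64. Their SD between lists was 0.32 to 1.05, so neighbours in this order were not told apart. These 8 regions were spread between 7.27% and 69.0% of the span of Chr08.

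On Chr10 the highest region lay from 21893858 to 21894715. Its folds were 11.0, 11.5 and 10.2 in replicates 1, 2 and 3 (mean 10.9 ± 0.64, SD, n = 3), on IP heights of 158, 128 and 184 reads. Next came 22486946 to 22487296, near the end of the chromosome and only 351 bp wide, with folds of 9.89, 8.86 and 9.89 (mean 9.55 ± 0.59, SD, n = 3). Its nearest shared neighbour was 123347 bp away. The last window of the chromosome, in which it lies, is incomplete (0.554 Mb) and held 5 regions. Then came 19065515 to 19066137, with folds of 8.86, 9.44 and 8.70 (mean 9.00 ± 0.39, SD, n = 3). In every list each of these 3 was higher than the highest fold of any shared region of Chr08, which was 7.90, 8.26 and 7.73. Below them came a step to 6.77 ± 0.72 for the region from 21537131 to 21538913, and the last 4 of the 8, beginning at 18961343, 11599689, 20963082 and 20491201, had mean folds of 6.39 to 6.21. Of the 8 regions, 7 lay in part 5 of the 5 equal parts of Chr10, and the exception stood at 51.4% of the span. That part also held 104 of the 274 regions of Chr10 outside the high-input class (38.0%). In the 5 equal parts of Chr08, regions with a mean fold of 5 or more made up 18.3% of the regions of part 1, 14.5% of part 2, 9.09% of part 3 and 16.2% of part 4, and part 5 held 2 among 9. On Chr10, part 5 held 18 of the 33 such regions of the chromosome, or 17.3% of the regions there. The share was 8.33%, 8.11% and 9.68% in parts 2, 3 and 4, and part 1 held 1 among 10.

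**Figure D5:**
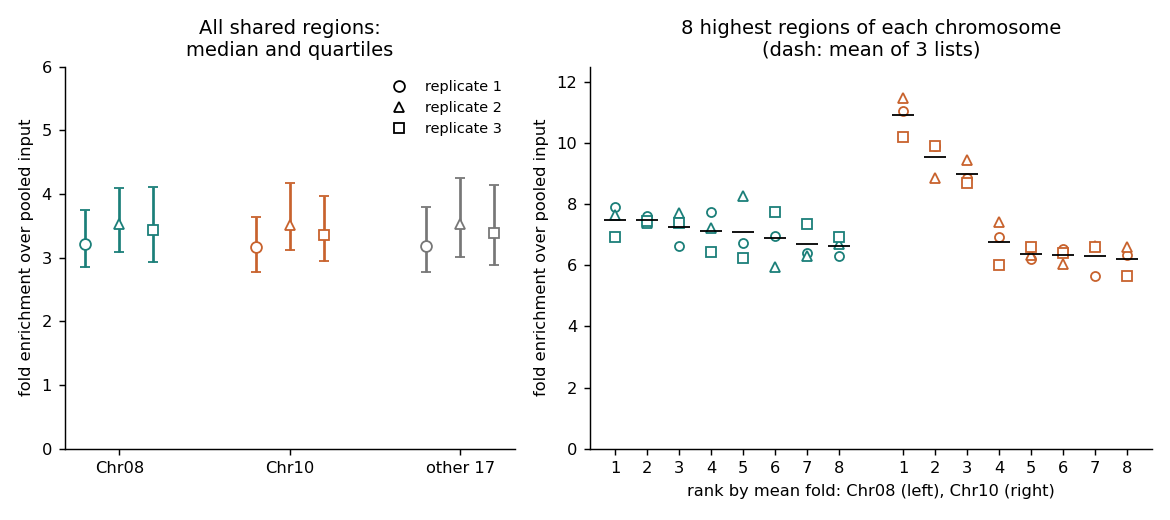
Left, median fold over pooled input of the shared regions in each list, with quartiles as bars, on Chr08, Chr10 and the other 17 chromosomes. Right, folds of the 8 highest regions of each chromosome outside the high-input class in each list (points) with their mean (dash). Medians lie between 3.16 and 3.53 in the 3 lists on both chromosomes, while 3 regions of Chr10, with means of 9.00 to 10.9, stand above all of Chr08.

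Over regions outside the high-input class, the median fold in the dense windows of Chr08 was 3.13, 3.45 and 3.28 in replicates 1, 2 and 3 (94 regions), against 3.27, 3.69 and 3.53 in its middle windows (145 regions), lower in 3 of 3 lists (difference -0.206 ± 0.055, SD, n = 3; exact sign-flip permutation p = 0.25). On Chr10 it was 3.22, 3.55 and 3.40 in dense windows (154 regions), against 3.14, 3.500 and 3.34 in middle windows (97 regions), higher in 3 of 3 lists (difference 0.062 ± 0.013, SD, n = 3; exact sign-flip permutation p = 0.25). The difference on Chr08 minus that on Chr10 was -0.269 ± 0.043 (SD, n = 3; exact sign-flip permutation p = 0.25), a comparison made after the values were seen. The sparse windows, the incomplete last one of each chromosome among them, held only 9 regions on Chr08 and 23 on Chr10.

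The median width of the merged shared regions was 507 bp on both chromosomes, with quartiles of 360 and 708 bp on Chr08 and of 365 and 705 bp on Chr10. The difference of these medians had no stable sign and ran from -43.0 to 43.5 bp under the other settings tried. The best peak of each list in these regions had a median width of 267, 294 and 425 bp on Chr08 in replicates 1, 2 and 3, against 269.5, 301.5 and 427.5 bp on Chr10. A width of 1000 bp or more was reached by 21 regions of Chr08 (8.05%) and 23 of Chr10 (8.04%), against 6.89% in the whole series. The median of the other 17 chromosomes was 475 bp. The single lists did not carry a wider peak on the pair throughout, with a difference of -12, 5 and 15 bp in replicates 1, 2 and 3. Summits of the 3 lists lay further apart on the pair. The 3 summits of a region spread over a median of 112 bp on Chr08 and 110.5 bp on Chr10, and over 92 bp elsewhere, and they lay within 100 bp of each other in 44.1% of the regions on Chr08 and 47.9% on Chr10, against 52.8% elsewhere.

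The widest regions of Chr10 were made of more peaks than those of Chr08. On Chr08 the region from 1338831 to 1341133 was followed by 8023852 to 8025538 (1687 bp), which was also number 3 by mean fold, and 5475383 to 5477033 (1651 bp, mean fold 4.39 ± 0.34, SD, n = 3). On Chr10 the widest ran from 13890464 to 13892844 (2381 bp, mean fold 5.48 ± 0.52), from 12205392 to 12207598 (2207 bp, 4.71 ± 0.76) and from 10722205 to 10724073 (1869 bp, 5.17 ± 0.69; SD, n = 3 each). Each of these 3 on Chr10 was made of 8 peaks, against 5, 4 and 6 peaks for the 3 on Chr08. In the list of replicate 3 the 2 widest of Chr10 were single peaks of 2352 and 2194 bp, while replicate 1 split each into 3 and replicate 2 into 4. None of the 3 was among the 8 highest of Chr10, whereas the 2 widest of Chr08 were among its 8 highest. Across all shared regions, width and mean fold had a Spearman's rho of 0.626 on Chr08 (261 regions) and 0.501 on Chr10 (286 regions), both measured in the same peaks.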

How the data were processed

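The peak caller MACS2 2.1.0, the aligner Bowtie2 2.3.5, the trimmer Trimmomatic 0.33 and deepTools 3.5.1 are named, without settings, in the submitters' processing notes. Each deposited peak list gives the authors' fold (the ratio of IP to pooled input where the peak is highest, with an added count of 1), a −log10 p and −log10 q, a score (10 times the −log10 p, cut to a whole number) and the summit. The files have no header, and the columns were read by the narrowPeak format. The smallest −log10 p was 5.002. No source used here states the genome build, the threshold or how duplicates were treated. The depth in reads is unknown. IP and expected heights were recovered from fold and p for 99.9% to 100% of peaks (tolerance 1e-04).

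Peaks were merged with Python 3.11.15 and pandas 2.3.3, and in each list a region took the values of its best peak by −log10 p. Spans end at the last peak of any list. Lists, not regions, are the replicates, and they were compared by exact sign-flip permutation. The submitters call them biological replicates without saying which plants they came from, so p-values concern these samples only. With 3 lists, the sign-flip permutation gives p = 0.25 whenever all differences share a sign, whatever their size. The spread between lists is given by the SD, not by p. For each chromosome the text names the 8 highest regions outside the high-input class, the 3 widest, the 3 longest stretches and densest windows, and every empty window. The regions, classes and measures were chosen with earlier results of these data known. The steps were tested on simulated data.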

Additional observations from a re-analysis of the deposited data

How the results depend on the processing

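A threshold of −log10 q of 10, a 50% overlap of every pair and summits within 100 bp left 78, 134 and 115 shared regions on Chr08 and 77, 134 and 137 on Chr10. Without 1 replicate, counts were 305 to 380 on Chr08 and 332 to 438 on Chr10, the highest without replicate 1. In the same 3 settings, the density ratio of Chr08 over Chr10 was 1.24, 1.22 and 1.03. It was 1.05 with equal list lengths, 1.21 with neighbours counted once and 1.06 to 1.12 without 1 replicate, above 1 in 9 of 9 alternatives. The ratio of the pair over the other chromosomes, 1.28, was 1.12, 1.13 and 1.12 in those 3 settings and 1.298 to 1.40 without 1 replicate. The difference of median folds, near 0 as reported, was 0.0640 with −log10 q of 10, 0.111 with equal list lengths and -0.00475 to 0.0290 without 1 replicate. The values of 0.0640, 0.111 and 0.0290 lay further from the reported one than the SD over lists, 0.026. That SD belongs to the differences in single lists, 0.051, 0.016 and 0.068, and 0.0640 and 0.0290 lie within their range. The difference of median widths had no stable sign. It was 43.5 bp with −log10 q of 10, 25 bp with 50% overlap, -43.0 bp with close summits, 9.00 bp without high input, 14.0 bp with equal list lengths, -10.0 bp for the best peaks and -35.0 to 7.50 bp without 1 replicate. The share with a close neighbour was lower on Chr08 in 10 of 10 alternatives. In percentage points it was -9.19 with −log10 q of 10, -8.96 with 50% overlap, -8.26 with close summits, -13.0 without high input, -13.2 with equal list lengths, -9.23 within 2 kb, -4.58 within 20 kb and -10.9 to -9.20 without 1 replicate. The rank correlation of the 2 profiles in the files' direction was -0.349 with close summits, -0.608 with equal list lengths, -0.393 in 500-kb windows, -0.681 in 2-Mb windows, -0.246 without the last 4 parts of Chr08 and 0.0193 with the trend removed, and -0.544 to -0.428 without 1 replicate. With Chr10 reversed, it was 0.478 with −log10 q of 10, 0.586 with 50% overlap, 0.523 with close summits, 0.638 with equal list lengths, 0.547 with neighbours counted once, 0.526 in 500-kb windows, 0.748 in 2-Mb windows, 0.799 in windows started 500 kb later, 0.484 without those 4 parts, 0.156 with the trend removed and 0.622 to 0.738 without 1 replicate. The causes of these shifts were not tested.

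No paired analysis was possible because every list was called against the pooled input, and no IP sample has an input of its own in these lists. The chromosomes were compared within lists, so those differences are paired by list. Only peaks that passed the authors' calling are listed, so a stretch without peaks is one without called binding.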
